A study of Mus musculus with 8 samples.

Results

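The 6 actin genes of the mouse (Acta1, Actc1, Acta2, Actg2, Actb and Actg1) and its 4 tropomyosin genes (Tpm1, Tpm2, Tpm3 and Tpm4) were followed through the myogenic differentiation of C2C12 cells, in RNA abundance and in m6A enrichment. They were chosen by name, as the proteins that build and coat the actin filament, with earlier results of these data known. They are 10 of the 27179 genes with a row in the expression table. All 10 were among the 11406 genes tested for a change. C2C12 is an established mouse myoblast line, described here in 2 states on collagen-coated dishes: growth medium (GM; 10% fetal bovine serum, cells at 50% confluence) and 3 days in differentiation medium (3d DM; 2% horse serum, started at over 90% confluence). Each state has 2 input libraries of poly(A) RNA and 2 libraries of the same kind of RNA immunoprecipitated with an antibody to N6-methyladenosine (MeRIP-seq). Neither state carries a transgene or knockdown. The labels do not say that the replicates came from separate cultures. The p-values thus rest on the spread between these libraries, which may be technical. In the fit of the deposited values that spread is pooled over genes of like abundance and is not each gene's own. In bulk RNA a change in the share of fused cells cannot be told apart from a change in RNA per cell.

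Actin monomers polymerise into the thin filament, and tropomyosin lies along it as a coiled coil that sets which myosins and which actin-binding proteins can reach the filament. Acta1 and Actc1 encode the skeletal and cardiac alpha-actins of the sarcomere, Acta2 and Actg2 the actins of vascular and enteric smooth muscle, and Actb and Actg1 the cytoplasmic beta- and gamma-actins of nearly every cell. Developing skeletal muscle is known to express Actc1 and Acta2 before Acta1 dominates. Each tropomyosin gene gives several proteins by alternative promoters and exons, with sarcomeric forms made from Tpm1, Tpm2 and Tpm3 and with Tpm4 known mainly for cytoskeletal forms.

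On mm10 the genes lie on different chromosomes or far apart. Acta1 is at chr8:123891769-123894751, Actc1 at chr2:114047282-114053548, Acta2 at chr19:34241090-34255590, Actg2 at chr6:83512905-83536265, Actb at chr5:142903115-142906754 and Actg1 at chr11:120345690-120348542, all on the minus strand. Tpm1 is at chr9:67022590-67049406 and Tpm2 at chr4:43514711-43523765 on the minus strand, and Tpm3 at chr3:90072649-90100902 and Tpm4 at chr8:72134975-72153142 on the plus strand.

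The labelled states were checked on fixed marker lists, also chosen with earlier results of these data known. Over all tested genes 7.01% were called higher in 3d DM and 9.96% lower, in limma's test at an adjusted p under 0.05. All 6 markers of differentiated skeletal muscle were called higher in 3d DM (Myog, Ckm, Myh3, Mymk, Tnnt3 and Ttn). Their summed normalised value went from 1345 to 7543 in GM to 77948 to 101463 in 3d DM. Among 6 myoblast markers Des and Itga7 were higher and Myf5 was lower. The defining smooth muscle markers Myh11 and Myocd stayed at or under 6.01. Of 6 smooth muscle markers, 3 of them tested and one of these Actg2 itself, Lmod1 was called. Lmod1, at 9.29 and 20.1 in GM, reached the level needed for testing in 3d DM only (58.2 and 105). Smtn was called as well after the rescaling described below (0.77, limma adjusted p = 0.0278). Of 7 cardiac markers 2 were tested, and Myh6 was the only one called. Myh6, at 4.12 and 8.02 in GM, reached the level needed for testing in 3d DM only (373 and 569). Gata4, the other one tested, was present in every library (249 and 218 in GM, 112 and 176 in 3d DM) and was not called (limma adjusted p = 0.360). Nppb was at 9.23 to 44.1 and Nkx2-5 at 5.26 to 10.03, and neither was tested. Myl7 and Tbx5 were at 0 in every library. Of 5 fibroblast markers 3 were tested, Col1a1 and Dcn were called higher and Thy1 was at 0. Dcn overlapped between the states (430 and 17.1 in GM, 409 and 685 in 3d DM) and was not called after that rescaling (limma adjusted p = 0.168). The part of other cell types in the actin levels was not tested.

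Acta1 and Actc1 had the largest changes of the 10 genes. The normalised value of Acta1 was 1634 and 440 in the GM libraries and 34709 and 45947 in the 3d DM libraries. Both 3d DM values lay far above both GM values, and the ratio of the means was 38.9. On the log2(value + 1) scale Acta1 rose by 5.56 (SE 0.40, n = 2 against 2, limma adjusted p = 5.94e-40). Actc1 stood at 505 and 108 in GM against 8728 and 16425 in 3d DM, a ratio of means of 41.0, and rose by 5.67 (SE 0.42, limma adjusted p = 6.71e-39). In the deposited values the fit takes its error from the trend over all genes of like abundance and not from the replicates of each gene. After median-of-ratios rescaling, where the gene's own spread enters, the limma adjusted p was 0.0026 for Acta1 and 0.0035 for Actc1. Without 3d DM replicate 1 the difference of Actc1 was 6.12 with a limma adjusted p of 0.0511.

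The GM libraries differed from each other in both striated actins, with replicate 1 the higher. The same library was also the higher in Myog (1008 against 221), Myh3 (1068 against 273) and Ckm (110 against 17.1), and the part of this in the GM levels of the actins was not tested. Despite that gap, the ratio of Actc1 to Acta1 per kb of exon was 0.293 and 0.234 in GM against 0.239 and 0.339 in 3d DM. The states overlap in this ratio, and its log2 difference of 0.12 gave an exact permutation p of 0.67, two-sided, in a design of 2 libraries against 2 that cannot go below 0.33.

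The smooth muscle actins did not move together. Acta2 measured 4651 and 9636 in GM against 13987 and 25285 in 3d DM, with both 3d DM libraries above both GM libraries, and it rose by 1.49 on the log2 scale (SE 0.40, limma adjusted p = 0.0021). That call was lost without GM replicate 1 (0.96, limma adjusted p = 0.248), without 3d DM replicate 1 (1.92, adjusted p = 0.138) and without 3d DM replicate 2 (1.06, adjusted p = 0.249). Actg2 measured 70.9 and 526 in GM against 128 and 186 in 3d DM. Both 3d DM values lie between the GM values, and its difference of -0.32 did not pass the test (limma adjusted p = 0.757). Without GM replicate 2 the difference of Actg2 was 1.11 (adjusted p = 0.567). GM replicate 2, the higher one in both genes, was also the higher in Tagln (1242 against 126) and Cnn1 (49.1 against 4.89), and the part of this was not tested.

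Both cytoplasmic actins fell. Actb measured 55913 and 59214 in GM against 15272 and 18162 in 3d DM, so that both GM libraries exceeded both 3d DM libraries, and the GM mean was 3.44 times the 3d DM mean. Its log2 difference was -1.79 (SE 0.40, limma adjusted p = 0.000114). Actg1 measured 14737 and 22267 in GM against 4524 and 7710 in 3d DM, again without overlap, with a log2 difference of -1.62 (SE 0.40, limma adjusted p = 0.00068). The ratio of Actg1 to Actb per kb was 0.266 and 0.379 in GM against 0.299 and 0.428 in 3d DM and overlapped between states (exact permutation p = 0.67). The call of Actb was lost without 3d DM replicate 1 (limma adjusted p = 0.147) and without 3d DM replicate 2 (0.0798). That of Actg1 was lost without GM replicate 2 (limma adjusted p = 0.116), without 3d DM replicate 1 (0.220) and without 3d DM replicate 2 (0.0623).

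The tropomyosins changed in different directions. Tpm2, the source of the beta-tropomyosin of striated muscle, measured 4015 and 2747 in GM against 24225 and 27473 in 3d DM. The values of the states are far apart, at a ratio of means of 7.65, and Tpm2 rose by 2.96 on the log2 scale (SE 0.40, limma adjusted p = 1.11e-11). Tpm4 was at 9555 and 10521 in GM, then 2799 and 3762 in 3d DM, without overlap, and its log2 difference was -1.63 (SE 0.40, limma adjusted p = 0.0007). This call was lost without GM replicate 2 (limma adjusted p = 0.0730) and without 3d DM replicate 1 (0.0996).

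Tpm1 and Tpm3 depended on the scaling. Tpm1, the source of alpha-tropomyosin, measured 7785 and 7534 in GM against 11107 and 13810 in 3d DM, and its log2 difference of 0.69 (SE 0.40) did not pass the test in the deposited values (limma adjusted p = 0.273). Tpm3 measured 5441 and 4560 in GM against 2340 and 2650 in 3d DM, with a log2 difference of -1.0 (SE 0.41, limma adjusted p = 0.0752). Neither gene overlapped between states. After median-of-ratios rescaling Tpm1 differed by 0.92 (SE 0.22, limma adjusted p = 0.0320) and Tpm3 by -0.77 (SE 0.19, adjusted p = 0.0372), and both passed. Both also passed when the largest row of the table, which takes 24.4% to 41.3% of a library, was left out.

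**Figure D1:**
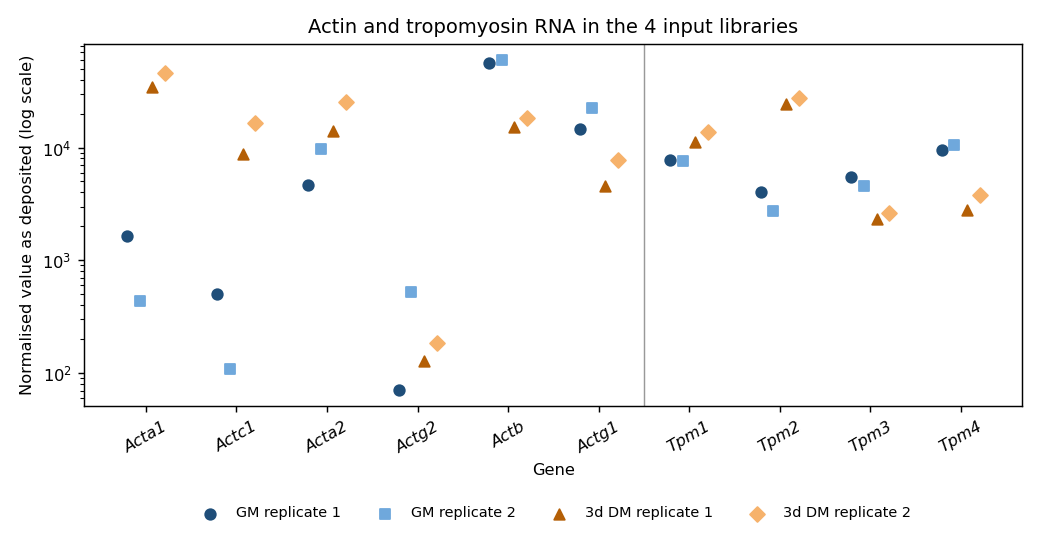
Normalised value as deposited, on a log axis, of each actin and tropomyosin gene in the 4 input libraries; each point is 1 library. Acta1 and Actc1 are separated the most between GM and 3d DM, Actb, Actg1, Tpm3 and Tpm4 lie lower in 3d DM, and Actg2 is the gene whose 3d DM points fall between the GM points.

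In all, 7 of the 10 genes passed in the deposited values, 4 higher in 3d DM (Acta1, Actc1, Acta2 and Tpm2) and 3 lower (Actb, Actg1 and Tpm4), where 17.0% of all tested genes passed in either direction, 7.01% higher and 9.96% lower. After median-of-ratios rescaling 9 of 10 passed, 5 higher and 4 lower, where 23.2% of all genes did (12.0% higher and 11.2% lower). The limma adjusted p was then 0.0017 for Tpm2, 0.0086 for Tpm4, 0.0193 for Actb, 0.0320 for Actg1 and 0.0416 for Acta2. With the largest row of the table left out the same 9 passed, where 24.4% of all genes did (10.3% higher and 14.1% lower). Libraries of the states did not overlap for 9 of the 10, against 53.8% of all tested genes. The median log2 difference over all tested genes was -0.22 in the deposited values and 0.00 after the rescaling. Relative to that median the differences were 5.78 for Acta1, 1.71 for Acta2, -1.57 for Actb, 0.92 for Tpm1 and -0.78 for Tpm3. With no filter on low values none of the 10 passed in limma's test and 5 had an unadjusted p under 0.05. In that fit the standard errors of the 10 genes ran from 0.23 for Tpm3 to 3.21 for Actb, larger than with the filter for 8 of them and smaller for Tpm3 and Tpm4, and the largest row had one of 79574.

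**Figure D2:**
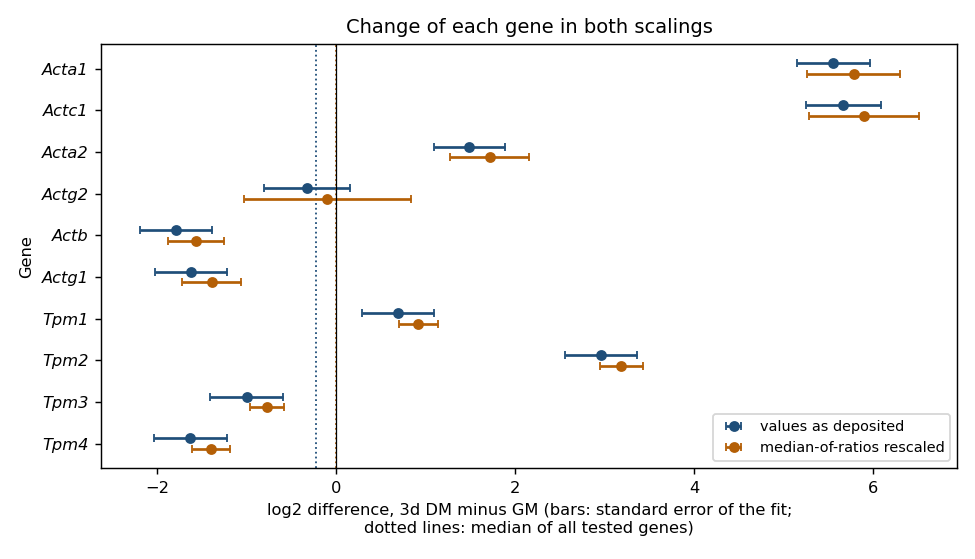
Log2 difference, 3d DM minus GM, of each gene with the standard error of the limma fit, for the values as deposited (blue) and after median-of-ratios rescaling (orange); dotted lines are the medians over all tested genes. Every gene keeps its side of 0 in both, and the bars of Tpm1 and Tpm3 are shorter after rescaling (0.22 and 0.19) than before it (0.40 and 0.41).

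The make-up of the actin pool was compared within each library, as levels per kb of annotated exon divided by the sum over the 6 genes, which no scaling between libraries can change. Cytoplasmic actins held 88.2% and 85.7% of the summed actin level in GM and 17.7% and 15.8% in 3d DM. Striated actins held 4.59% and 0.99% in GM against 66.9% and 65.3% in 3d DM. Thus the larger part of the pool was cytoplasmic in both GM libraries and striated in both 3d DM libraries. Actb alone went from 69.7% and 62.2% to 13.6% and 11.1%, and Acta1 from 3.55% and 0.80% to 54.0% and 48.7%. Acta2 held 7.07% and 12.3% in GM against 15.2% and 18.8% in 3d DM, a change of 7.29 points between the means. That change was 11.9 points with no division by length and 4.65 points without GM replicate 1. Each of these shares was without overlap between states, with an exact permutation p of 0.33, the smallest that 2 libraries against 2 can give.

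In GM the order of the actin levels per kb was Actb (21487 ± 871, mean ± SD, n = 2), Actg1 (6961 ± 2003), Acta2 (3253 ± 1605) and Acta1 (675 ± 550), with Actc1 (190 ± 173) and Actg2 (192 ± 207) last. The ranges of Acta1, Actc1 and Actg2 overlapped in part, and those of Actb, Actg1, Acta2 and Acta1 did not. In 3d DM the order was Acta1 (26255 ± 5174), Acta2 (8942 ± 3638), Actc1 (7773 ± 3364), Actb (6240 ± 763), Actg1 (2301 ± 847) and Actg2 (101 ± 26.1). Acta2, Actc1 and Actb, the neighbours in the middle, overlapped one another. The summed actin level per kb was 29955 and 35559 in GM against 41846 and 61378 in 3d DM, a log2 difference of 0.63 (exact permutation p = 0.33). The ratio of Acta1 to Actb was 0.0510 and 0.0129 in GM against 3.96 and 4.41 in 3d DM.

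The main tropomyosin gene was Tpm4 in both GM libraries and Tpm2 in both 3d DM libraries. Tpm4 held 55.5% and 62.6% of the summed tropomyosin level per kb in GM and 10.9% and 12.5% in 3d DM. Tpm2 held 17.7% and 12.4% in GM against 71.2% and 68.8% in 3d DM. Tpm3 went from 11.4% and 9.82% to 3.29% and 3.17%, a change of -7.40 points that became -13.5 points with the length of the longest transcript (20.2% and 17.9% against 5.70% and 5.5%). Tpm1 kept nearly the same share in all 4 libraries, 15.4% and 15.2% in GM against 14.6% and 15.5% in 3d DM, and its states overlapped. Levels are per gene, so a switch among the transcripts of a tropomyosin gene (21 annotated for Tpm1) was not tested. With the length of the longest transcript in place of the union of exons, the share of Tpm1 was 23.8% and 24.3% in GM against 22.2% and 23.5% in 3d DM. The states then no longer overlapped, by 1.15 points between the means, and the level of this share rests on the length used (6485 nt of union of exons against 2890 nt for Tpm1). The summed tropomyosin level per kb was 7812 and 7631 in GM against 11695 and 13717 in 3d DM (log2 difference 0.71, exact permutation p = 0.33).

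**Figure D3:**
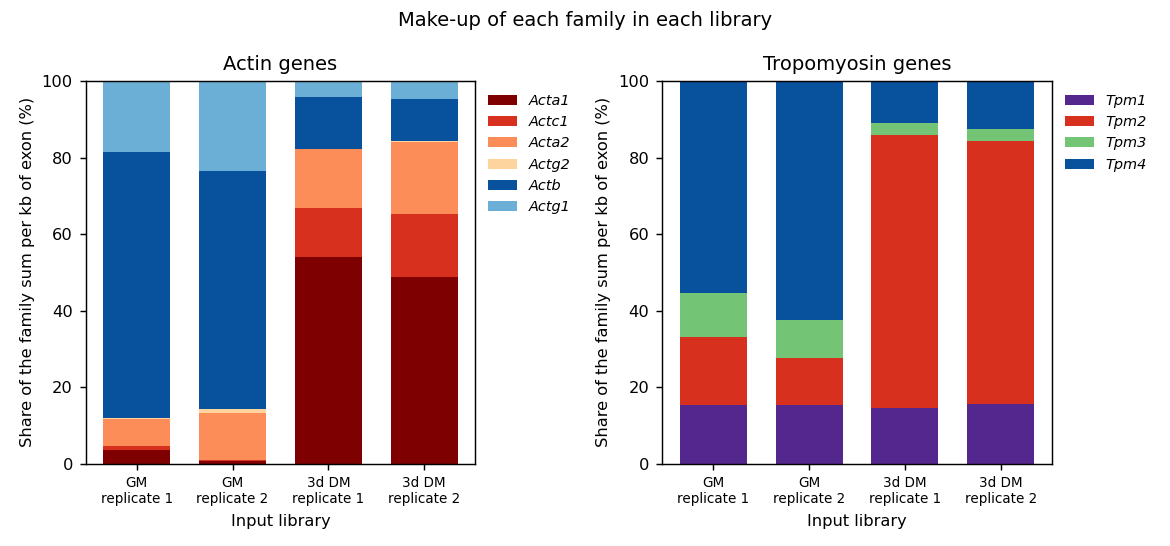
Share, in percent, of each gene in the sum of its family per kb of exon, one bar per input library, actins on the left and tropomyosins on the right. Blue cytoplasmic actins fill over 85% of both GM bars and red striated actins over 65% of both 3d DM bars, while Tpm2 replaces Tpm4 above a Tpm1 segment of 14.6% to 15.5%.

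The promoters of 8 of the 10 genes were found in RefSeq (GRCm38.p6, 250 bases before to 50 after the start; 9 promoters, as Tpm3 has 2), those of Actb and Actg2 not being used here. Serum response factor, which switches on actin genes when its cofactors are released by actin monomers, binds the CArG box. An exact CArG box stood in the promoters of Acta1, Actc1 and Actg1, 3 of 9, and in 1.63% of all 32851 promoters. The windows below are shown because they set the rising pair beside the falling Actg1; the capitals mark the box, which reads as the same motif on both strands.
Acta1, chr8:123894832-123894855, minus strand: ccgacacCCAAATATGGcttggga
Actc1, chr2:114052906-114052929, minus strand: aaggcgaCCAAATAAGGcaaggtg
Actg1, chr11:120348569-120348592, minus strand: aagatcgCCATATATGGacatgtt
The boxes begin 73, 47 and 90 bases before the start, and they stood in genes that changed in opposite directions. With 1 substitution allowed, which counts the exact boxes too, Acta1 had 3 matches, Actc1 4, Acta2 2, Tpm1 2, Actg1 1, the Tpm3 promoters 1 and 2, and Tpm2 and Tpm4 none, against 21.1% of all promoters with a match. CATTCC, the site of TEAD factors, was found on either strand in the promoters of Acta1, Acta2 and Tpm1 and in 14.7% of all promoters, and CANNTG, the E box bound by MyoD and myogenin, in each of the 9 and in 72.3% of all. A match is a description of these letters and not of binding. Srf itself measured 493 and 943 in GM against 431 and 667 in 3d DM (log2 difference -0.35, limma adjusted p = 0.703), and its cofactor gene Mrtfa differed by -0.34 (adjusted p = 0.715); none of the 3 tested genes of the actin transcription list passed in limma's test, and none had an unadjusted p under 0.05.

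On the list of genes for the ends and length of the thin filament, Neb, Nrap, Tmod1, Lmod1, Lmod2 and Lmod3 were higher in 3d DM. The capping protein genes Capza2 (log2 difference 0.27, limma adjusted p = 0.775) and Capzb (-0.18, adjusted p = 0.861) did not pass. Of 10 tested genes on this list 6 rose and none fell, where 7.01% of all tested genes rose and 9.96% fell. The median log2 difference was 2.83 beside -0.22 over all tested genes. Lmod1, among the 6, measured 9.29 and 20.1 in GM against 58.2 and 105 in 3d DM and reached the level needed for testing in 3d DM only. With the filter in at least 3 of 4 libraries the number that rose was 5. Without 3d DM replicate 1 the number that rose was 1, and without 3d DM replicate 2 it was 3. Neb, the nebulin that spans the thin filament, went from 508 and 102 to 8022 and 7411 (5.07, SE 0.42, limma adjusted p = 1.17e-30). Lmod2, a leiomodin that nucleates filaments, went from 32.8 and 12.1 to 956 and 1455 (5.81, SE 0.49, adjusted p = 2.20e-30). The limma adjusted p after median-of-ratios rescaling was 0.0054 for Neb and 0.0013 for Lmod2. The lowest adjusted p in the other direction belonged to Tmod3 (-0.84, adjusted p = 0.221) and Capza1 (-0.40, adjusted p = 0.644), which did not pass.

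Of 10 tested genes of actin turnover 1 rose and 3 fell, beside 7.01% and 9.96% of all tested genes, with a median of -0.86. The number that rose was 0 without either 3d DM library. The number that fell was 0 without 3d DM replicate 1, and 1 without either GM library or with the replicate block. Cap2, a cyclase-associated protein of striated muscle, went from 39.4 and 1.03 to 651 and 648 (6.17, SE 0.53, limma adjusted p = 2.07e-28). Its GM libraries lie far apart, and its limma adjusted p after median-of-ratios rescaling was 0.0176. Tmsb10, a monomer-binding thymosin, differed by 0.91 (adjusted p = 0.108). Cfl1, the non-muscle cofilin that severs filaments, fell by 1.65 (limma adjusted p = 0.000513), and Cap1, the non-muscle cyclase-associated protein, differed by -1.33 (adjusted p = 0.0102). After median-of-ratios rescaling Cfl2, the muscle cofilin, passed as well (1.09, limma adjusted p = 0.0234). Cap1 and Cap2 are paralogues and had opposite signs.

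Of the 5 tested regulators of smooth muscle and non-muscle filaments, 1 rose and 2 fell, beside 7.01% and 9.96% of all tested genes, with a median of -0.82. None rose without GM replicate 1, without either 3d DM library or with the replicate block, and the number that fell was 0 without 3d DM replicate 1 and 1 in each of the other cases with a library left out or with the block. Tagln2, a transgelin, fell by 2.30 (limma adjusted p = 1.33e-06) and Cnn2, a calponin, by 1.28 (adjusted p = 0.0162). Tagln passed at 1.51 (limma adjusted p = 0.0048) although its states overlapped, at 126 and 1242 in GM against 849 and 1510 in 3d DM, and it did not pass after rescaling (adjusted p = 0.277). Cnn3 differed by 0.61 (limma adjusted p = 0.358) and passed after rescaling (0.84, adjusted p = 0.0336). In the Arp2/3 complex, which nucleates branched actin networks, 2 of 9 genes fell and none rose, beside 9.96% and 7.01% of all tested genes, with a median of -0.67. None fell without either GM library, without 3d DM replicate 1 or with the replicate block, and 1 fell without 3d DM replicate 2. Arpc5 differed by -1.39 (adjusted p = 0.0105) and Arpc1b by -1.29 (adjusted p = 0.0148). All 7 state checks passed, 4 higher and 3 lower, beside 7.01% and 9.96% of all tested genes. The higher ones were led by Myh3 (6.26) and Ckm (5.38), the lower ones by Ccnb1 (-3.08) and Top2a (-2.69).

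The tested genes with the profiles nearest to each member were found by the distance between centred log2 profiles over the 4 input libraries, which fixes little with so few points. Nearest to Acta1 were Prkag3 (distance 0.17), Pygm (0.21) and Adamts16 (0.22), and nearest to Actc1 were Ankrd2 (0.19), Otog (0.19) and Adamts16 (0.47). Prkag3 is a muscle subunit of AMP-activated kinase, Pygm the muscle glycogen phosphorylase and Ankrd2 a muscle ankyrin-repeat protein. Otog and Adamts16, also among the nearest to this pair, are not described here, so no common theme is read from them. Adamts16 measured 2.14 and 0.002 in GM, so its match rests in part on the 1 added before the log. Ankrd2 (24.4 and 5.04 in GM) and Otog (14.9 and 3.02 in GM), like Adamts16, reached the level needed for testing in 3d DM only. Nearest to Actb were Pcna (0.05), the replication clamp, Cenpw (0.05), a centromere protein, and Hmgb3 (0.09). Nearest to Actg1 were Nup85 (0.03), Eif4e3 (0.05) and Ndc1 (0.08), of which Nup85 and Ndc1 are nuclear pore proteins. Acta2 stood nearest to Ephb2 (0.14), Sh3bp4 (0.26) and Prag1 (0.31), Tpm1 to Cdc37l1 (0.05), Sugp2 (0.06) and Rbm18 (0.07), and Tpm4 to Rbmx2 (0.04), Loxl2 (0.04) and Aprt (0.10).

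m6A is an internal mark of mRNA laid down by the METTL3 complex, often near the stop codon, at sequences of which GGACT is among the most used. The lists give each peak a fold enrichment, the ratio of immunoprecipitated over input RNA. Whether RNA abundance affects this fold, or whether a peak is listed at all, was not tested. Peaks were listed for 8 of the 10 genes, for 6 in each GM list and in that of 3d DM replicate 1 and for 8 in that of 3d DM replicate 2. Of tested genes with a symbol 63.8% and 60.4% had a peak in the GM lists and 62.8% and 53.5% in the 3d DM lists. Acta2, Actb and all 4 tropomyosins had a peak in all 4 lists, 6 of 10, where 42.6% of these genes and 65.4% of the top 5% of genes by mean expression had one. Actg1 and Actg2 had no peak in any list, as did 23.8% of the tested genes and 13.8% of that top 5%. Of the 144 lines on the 10 genes 129 fell on tropomyosins and 15 on actins, a count that rests also on the number of annotated transcripts (21 for Tpm1, 2 for Acta1).

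The striated actins carried almost no listed enrichment in the state where their RNA was most abundant. Acta1, the most abundant member per kb in 3d DM, had a single line, of 60 nt in exon 3 of 7 (chr8:123893146-123893205, coding) in 3d DM replicate 2, with a fold of 1.35. Actc1 likewise had 1 line, of 148 nt in the 3′ UTR of its last exon (chr2:114047282-114047429), in the same list, with a fold of 1.73. In the other 3d DM list and in both GM lists neither gene had a line. Both folds lie at the lower end of that list, above 0.0477% and 1.02% of its genes.

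Acta2 had a weak peak around or after its stop codon in each list, ending at the same base 191 nt after the stop codon (chr19:34241476) in all 4. Its highest fold was 1.38 and 1.59 in GM against 1.19 and 2.30 in 3d DM. The 3d DM values enclose the GM values, and the exact permutation p of the log2 difference (0.16) was 1, two-sided. The 2.30 belongs to a further stretch 399 to 518 nt after the stop codon that was listed in 3d DM replicate 2 only. At p-values under 1e-05 the gene kept a peak in 3d DM replicate 2 only.

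Actb had 1 broad peak from the end of the coding sequence through the 3′ UTR. Its longest line ran over 841 nt (chr5:142903115-142904080) in GM replicate 1, 811 nt in GM replicate 2, 781 nt in 3d DM replicate 1 and 721 nt in 3d DM replicate 2. The 3′ end lay 653 to 683 nt after the stop codon, the end of the transcript, and the 5′ edge 157 nt before the end of the stop codon in both GM lists and 97 and 37 nt before it in 3d DM. The highest fold was 2.97 and 2.74 in GM against 3.97 and 2.30 in 3d DM. As for Acta2 the 3d DM values enclose the GM values (log2 difference 0.08, exact permutation p = 1). The enrichment of Actb thus showed no shift beyond the spread between lists while its RNA fell.

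All 4 tropomyosins had peaks that ran along the coding sequence and not only around the stop codon. On the longest complete transcript listed in the most lists, Tpm2 was covered over 100% of its coding sequence in each list, and so was Tpm4. Tpm1 was covered over 88.9% to 93.0% of it in a stretch that ended 37 nt before the end of the stop codon in all 4 lists. On this transcript of Tpm3 the covered part was 68.1% and 74.9% in GM against 88.8% and 100% in 3d DM, starting nearer to the 5′ end in both 3d DM lists. Over all listed Tpm3 transcripts together the states overlapped. Peaks there covered 1555 and 1424 nt in GM against 1424 and 1605 nt in 3d DM. By comparison the median gene of a list had 14.3% to 20.1% of its best covered transcript covered. The best covered transcript of Tpm2 (100% in each list) and of Tpm1 (80.5% to 100%) exceeded at least 97.7% of the genes listed. That of Tpm4 (39.5% to 49.4%) was near that of Actb (37.6% to 43.8%). The measure takes the highest of a gene's listed transcripts, and the longer Tpm2 transcript used above was covered over 86.3% to 89.1%.

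**Figure D4:**
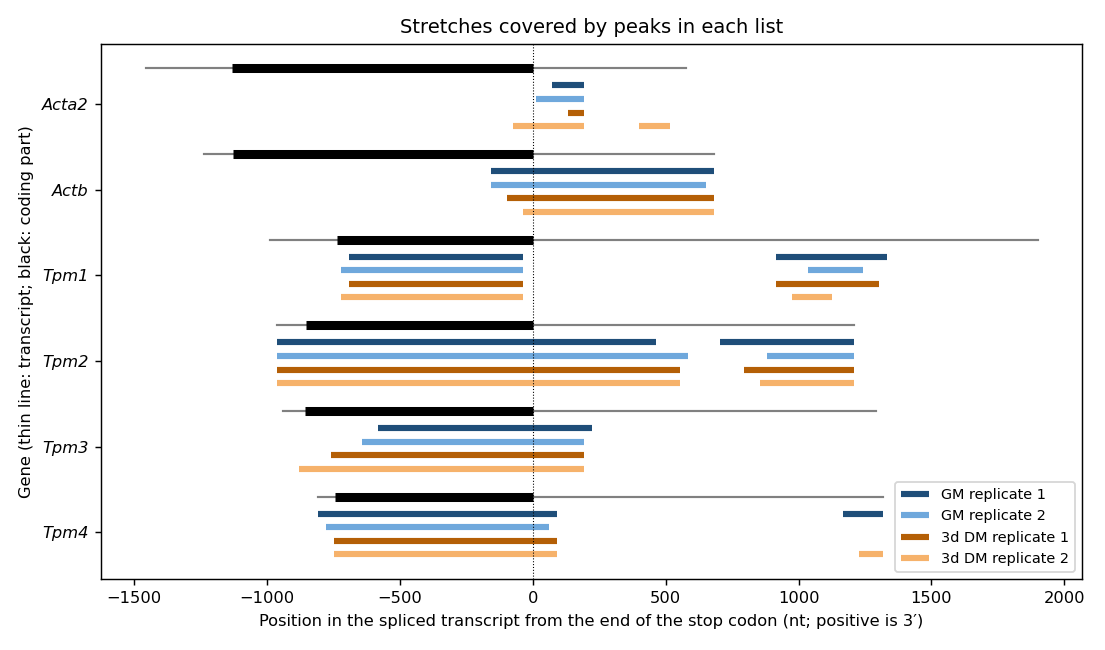
Stretches covered by peaks in each list, in nt of spliced transcript from the end of the stop codon, for 6 genes; the thin line is the transcript, the black bar its coding part, and each coloured bar the peaks of 1 list. The Acta2 and Actb bars sit at and after the stop codon, whereas the tropomyosin bars run along the coding part, with further stretches in the 3′ UTR of Tpm1, Tpm2 and Tpm4.

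The folds of the tropomyosin peaks stood above 32.4% to 78.5% of the genes of their lists. The highest fold on Tpm2 was 6.38 and 5.57 in GM against 5.09 and 5.57 in 3d DM (log2 difference -0.16, exact permutation p = 0.67), while its RNA rose. On Tpm4 it was 5.90 and 3.64 in GM against 4.64 and 4.53 in 3d DM (-0.02, exact permutation p = 1), while its RNA fell. On Tpm1 it was 5.43 and 5.26 in GM against 4.63 and 4.27 in 3d DM, lower in both 3d DM lists (-0.27, exact permutation p = 0.33, the smallest the design allows). On Tpm3 it was 6.35 and 9.39 in GM against 4.59 and 4.11 in 3d DM (-0.83, exact permutation p = 0.33). The value of 9.39 stood on 2 of the 7 Tpm3 transcripts of GM replicate 2, and the median over the 7 was 3.65.

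Over all transcripts listed in all 4 lists, the separation on Tpm1 and Tpm3 was not kept. The median over 16 Tpm1 transcripts was 5.29 and 3.94 in GM against 4.57 and 4.15 in 3d DM (log2 difference -0.07, exact permutation p = 1). Over 7 Tpm3 transcripts it was 5.27 and 3.65 in GM against 4.23 and 3.86 in 3d DM (-0.12, exact permutation p = 1). In both genes the 3d DM values lie between the GM values. These transcripts share most of their exons, so a fold on one is not a measure of that isoform. Each list's median of the highest fold per gene was 5.69 and 4.94 in GM against 4.92 and 5.29 in 3d DM.

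Tpm1 also had peaks in its alternative ends. In the terminal exon at chr9:67027892-67028167, where 5 coding transcripts end, peaks covered 188 and 186 of 276 nt in GM and 266 and 276 nt in 3d DM. In the longer stretch at chr9:67022590-67024565, where 12 coding transcripts end, they covered 461 and 260 of 1976 nt in GM and 439 and 200 nt in 3d DM. Coverage of the first end was thus more complete in both 3d DM lists, and coverage of the other overlapped between states. Lines confined to the first end stood only in replicate 1 of each state, with a highest fold of 2.36 in GM and 3.25 in 3d DM. The line confined to the longer stretch had a fold of 2.44 and 1.30 in GM against 2.09 and 1.68 in 3d DM, lower than the folds along the coding part.

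**Figure D5:**
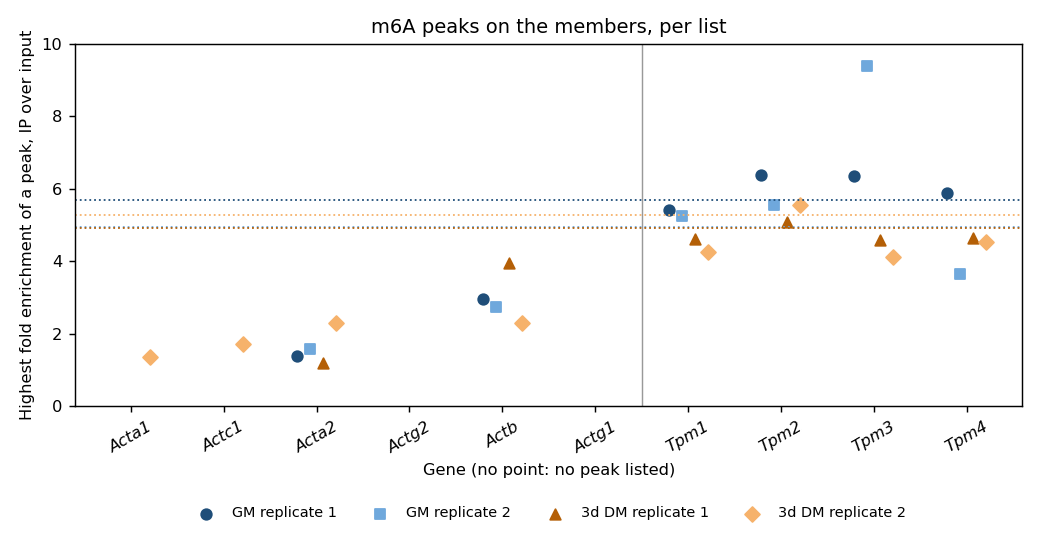
Highest fold enrichment, immunoprecipitated over input, of a peak on each gene in each of the 4 lists; dotted lines are each list's median of the highest fold per gene, and a gene without a point has no peak listed. Actin points lie under 4 and tropomyosin points between 3.64 and 9.39, around the list medians of 4.92 to 5.69.

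The sequence under the peaks was searched for GGACT on the transcript strand, and no test was made of the counts. The stretch of Actb that was covered in all 4 lists, 691 nt, holds GGACT 2 times, both in the 3′ UTR, and 51.3% of stretches of that length in mouse coding transcripts hold it at least once. Of the tropomyosins, Tpm2 holds it 1 time in 1759 nt covered in all 4 lists, in the coding part, where 83.0% of stretches of that length hold it. These 3 sites are shown because they are all the GGACT sites covered in every list on the transcripts used; capitals mark GGACT, and the transcript's strand is printed as DNA from GENCODE M21 on mm10.
Actb, 3 nt after the stop codon, chr5:142903783-142903803, minus strand: ttctaggcGGACTgttactga
Actb, 263 nt after the stop codon, chr5:142903523-142903543, minus strand: gtggctgaGGACTttgtacat
Tpm2, position -387 from the end of the stop codon, chr4:43519401-43519421, minus strand: atcgctgaGGACTcagaccgc
The stretches of Tpm1 (747 nt), Tpm3 (775 nt) and Tpm4 (810 nt) covered in every list hold no GGACT, where 53.9%, 55.3% and 56.8% of stretches of those lengths hold it. In the longest line of each gene, 68.1% to 71.2% of lines of 700 to 1600 nt held GGACT, and the longest Tpm1, Tpm3 and Tpm4 lines held none in any of the 4 lists. The shorter GGAC, which includes every GGACT, stood 2 to 6 times in those lines, 8 times in each of Tpm2 and 2 times in each of Actb, where the median was 4 or 5. Actg1, with no peak, has GGACT 2 times in its transcript, and Acta1 also 2 times, both coding, so the letters occur in transcripts with and without peaks.

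How reads of near-identical sequences were assigned bears on Actg1, Tpm3 and Actb. Of the windows of 50 bases in the transcripts used, 56.7% of those of Actg1 occur exactly in transcripts of other genes, most of all the pseudogene Gm12715. For Tpm3 the share is 62.4%, all of it with the retrosequence Tpm3-rs7, which the lists hold as a gene of its own with a fold of 9.62 and 3.96 in GM against 6.83 and 3.49 in 3d DM. For Actb it is 14.2%, mostly with Lrrc58, and for Tpm4 12.1%. It is 2.22% for Acta1, 0.352% for Acta2 and 0 for Actc1, Actg2, Tpm1 and Tpm2. The coding sequences of the actins are 81.5% to 88.7% identical in pairs, with Actb and Actg1 the most alike, and those of the tropomyosins 63.5% to 74.6%. The tropomyosin transcripts used differ in coding length, and the pairs of like length (Tpm1 with Tpm4, 738 and 747 nt, and Tpm2 with Tpm3, 855 and 858 nt) gave 74.2% and 74.6%, whereas the other pairs gave 63.5% to 64.8%, so the range rests on the isoforms chosen. Levels and peaks of Actg1 and Tpm3, the lack of a listed peak on Actg1 included, are uncertain to that extent, and the handling of such reads is not given in the sources used here.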

How the data were processed

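The deposited files of C2C12 cells in GM and 3d DM were used, with 2 input and 2 immunoprecipitated libraries in each state and groups taken from the labels. The authors trimmed adaptors and used HISAT2 (version 2.1.0) with the mm10 genome, and their peaks came from exomePeak, sample by sample, at P ≤ 0.05. In the deposited lists a p-value and a fold (enrichment ratio of IP to input) stand beside each peak on each transcript. The deposited expression table holds a normalized signal that the authors made with edgeR and named TMM. Each column sums to 12534657 to 12536233. Low values are not whole numbers and recur in pairs within a state, so reads could not be recovered, depth is unknown and the replicate spread may have been altered before deposit. No read counts, and hence no counting error, can be given.

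IDs were matched to symbols through RefSeq (98.7% of tested genes). Genes at 25.1 or more (the mean over libraries of a level of 2 on the CPM scale) in at least 2 of 4 libraries were kept, a looser filter than the 3 libraries of the study. Limma 3.58.1 in R 4.3.3 was run with an intensity trend on log2(value + 1), which understates changes of low genes, with Benjamini-Hochberg adjustment over 11406 genes. It was tested on simulated data. Its prior degrees of freedom were infinite in the deposited values and 3.82 after median-of-ratios rescaling. Shares, ratios and peak folds were compared by two-sided exact permutation. Peak starts were read as 0-based and are printed 1-based. Peak lines of a gene were joined at 1 shared bp. Coding identity was taken from global alignments with Biopython 1.88.

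The 10 genes and the companion and marker lists were chosen with earlier results of these data known. The text names the 10 genes, the 2 genes of lowest adjusted p in each direction of each companion list, the 3 nearest profiles of Acta1, Actc1, Acta2, Actb, Actg1, Tpm1 and Tpm4, and the peak of highest fold. Cfl2, Nrap, Tmod1, Lmod3, Capza2 and Capzb were named after their values were seen. Alternatives covered the filter, pseudocount, scaling, trend, replicate block, gene length, peak thresholds and each library left out.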

Additional observations from a re-analysis of the deposited data

How the results depend on the processing

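Leaving out 1 library leaves a state with a single library that is assumed to vary like the others. The log2 differences then ran from 4.61 to 6.50 for Acta1, 4.56 to 6.77 for Actc1, 0.96 to 2.02 for Acta2, -1.76 to 1.11 for Actg2, -1.91 to -1.66 for Actb, -2.0 to -1.23 for Actg1, 0.54 to 0.85 for Tpm1, 2.68 to 3.23 for Tpm2, -1.13 to -0.87 for Tpm3 and -1.84 to -1.41 for Tpm4. Over all tested genes (800 higher and 1136 lower) the counts ran from 101 to 679 higher and 44 to 573 lower, of the 10 genes from 2 to 4 higher and 0 to 3 lower, and of the companion lists (12 higher and 10 lower together) from 2 to 12 higher and 2 to 7 lower. Without a filter on low values no gene of the 10 passed in limma's test (Acta1 5.56, adjusted p = 0.282; Actc1 5.67; Acta2 1.49; Actb -1.79; Actg1 -1.62; Tpm2 2.96; Tpm4 -1.63), 80 genes were called higher and 74 lower, and 0 of the companion genes in either direction, in a fit whose standard errors for the 10 genes ran from 0.23 to 3.21, beside 0.40 to 0.48 with the filter. A filter in 3 libraries gave 524 higher. Median-of-ratios rescaling gave 1365 higher and called Tpm1 (0.92) and Tpm3 (-0.77), as did leaving out the largest row (0.80 and -0.89).

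The labels do not say whether libraries with the same replicate number were handled together. Deviations of same-numbered libraries from their state means correlated at r = 0.29 over the tested genes. This is a single value, since the 2 libraries of a state deviate in mirror image. A batch shared by number was not tested. The fit with the replicate block called 705 genes lower and 5 companion genes lower, and changed no call of the 10 genes. With the length of the longest transcript the change in share was 60.7 points for the striated actins, 49.3 for Tpm2 and -34.7 for Tpm4, and with no division by length 53.8, 45.8 and -31.2, and -65.6 for the cytoplasmic actins; the change for Tpm3 was -13.5 under both and for Acta2 11.9 with no division by length. Leaving out a library moved these shares within 61.5 to 65.1 points (striated), -71.5 to -69.0 (cytoplasmic), 52.4 to 57.7 (Tpm2) and -50.9 to -43.9 (Tpm4). At a fold of 4 or more, 3 of the 10 genes had a peak in all lists instead of 6; the change in fold then had no value for Acta2, Actb and Tpm4, nor for Acta2 at p-values under 1e-05. Medians over transcripts, an alternative chosen after seeing the data, put the log2 difference in fold at -0.068 for Tpm1 and -0.12 for Tpm3. Read numbers were not used here, so the depth that limits the peak lists is unknown.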
